A study of Homo sapiens with 8 samples.

Results

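The change in ribosome footprints per mRNA between DNMT3A genotypes was measured gene by gene, in 3068 genes out of 9166 that could be tested and 20453 listed. These 3068 genes had a mean count of at least 100 in the mRNA libraries and at least 100 in the footprint libraries. The label of the cells is THP-1, a line from a patient's acute monocytic leukaemia, and they carried a transduced copy of DNMT3A, either wild type or mutant (R882H in the series design), so the comparison cells carry an introduced copy too. The sources used here do not give the vector, the time after transduction or the state of the cell's own DNMT3A alleles. RNA-seq counted mRNA. Ribosome profiling counted the short stretches of mRNA that a ribosome shields from nuclease (footprints). Each combination of genotype and assay had 2 libraries, 8 in all.

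DNMT3A adds methyl groups to unmethylated CpG sites in DNA, and it is often mutated in acute myeloid leukaemia, most of all at the arginine that R882H replaces. The number of footprints on a transcript depends on how much of it there is and on how densely ribosomes occupy it. The ratio of footprints to mRNA separates these quantities. A transcript may rise while its footprints stay level, which is called buffering, and a change in ribosome density in the same direction as the mRNA change is called reinforcement. Ribosomal protein mRNAs are a textbook class under shared control at this step, through a run of pyrimidines that begins at their first base, the TOP motif (terminal oligopyrimidine tract).

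Total counts lay between 3415999 and 4523475 in the mRNA libraries. The wild-type footprint libraries held 1611724 and 1988513 counts, and the mutant ones 944824 and 603360. The median gene of the 3068 had 243 and 300 counts in the wild-type footprint libraries but 146 and 93 in the mutant ones, so the mutant footprints were the least precise values. The 2 footprint libraries of each genotype agreed within sampling noise: chi-square per degree of freedom was 1.01 in wild-type and 0.925 in mutant footprints, against 1.08 in wild-type and 1.33 in mutant mRNA. Whether they are 1 library sequenced in 2 portions was not tested, and shallower libraries show less of any spread beyond sampling noise. Each pair may be no more than 1 sample. The labels do not say that any replicates came from separate cultures, so all p-values measure only how far these libraries differ, a spread that may be technical. The main fit used 8 libraries, and its counts are given beside those of a fit in which each pair of footprint libraries was summed to 1 sample. The summed fit has no replicate footprints, so its spread comes from the mRNA libraries alone. The SE and adjusted p of each gene come from the main fit, which counts the paired footprint libraries as separate samples. Levels are in CPM (a gene's counts scaled to a common library size), the footprint/mRNA ratio is footprint CPM over mRNA CPM, and all changes are log2 of mutant over wild type with a standard error (SE).

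The label was checked against marker genes. Of 20 monocyte and macrophage markers 5 reached a mean of 10 CPM in mRNA, and 7 had no mRNA count, among them the defining genes CSF1R, S100A8, S100A9 and IRF8. Their summed mRNA level was 346 to 381 CPM over the 4 mRNA libraries. All 18 erythroid and megakaryocyte markers reached 10 CPM, with a summed level of 3424 to 4035 CPM. Epithelial markers reached it in 4 of 7 cases, T and NK cell markers in 2 of 11, and B cell markers in 0 of 6 and fibroblast and endothelial markers in 0 of 9. The marker levels went against the monocytic label, and the cells are therefore called by their label only.

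Footprints per mRNA changed in 266 of the 3068 genes, 99 higher and 167 lower in mutant cells. Over all 9166 genes tested 4.13% passed, 1.78% higher and 2.36% lower (edgeR's quasi-likelihood test, Benjamini-Hochberg adjusted p under 0.05). Among the 3068 deeper genes 8.67% passed. Ribosomal proteins and histones supplied 42 of these calls, and without them 88 genes rose and 136 fell. With the footprint libraries of each genotype counted as 1 sample 227 genes passed, 75 higher and 152 lower, all of them among the 266. That fit cannot measure the spread of footprints between samples. In the main fit the largest fall was 2.49-fold and the largest rise 1.85-fold, while the median over the 3068 genes was -0.01. Scaling places the typical gene of each assay near 0, so a change shared by all genes cannot be seen in these values.

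These counts rest on how small the spread between libraries was. When a coefficient of variation of 10% between cultures was assumed in place of the measured spread, 9 of the 3068 genes passed, beside 13 of all 9166 tested (0.142%). RPL13, RPS24, NIFK, PRIM1, TMX1, ABRAXAS1, FTH1 and LSM3 were lower and RPLP0 was higher. DESeq2 called 112 genes, footprints thinned to equal depth gave 155, and leaving out the first mutant footprint library gave 113. Without a filter on low counts 51 genes were higher and 181 lower, against 99 and 167. With only the 3068 genes fitted 176 were higher and 213 lower, and with a replicate block 157 and 221. The balance of rises and falls thus moved with the fit.

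mRNA passed far more often than footprints per mRNA, which was measured less precisely (median SE 0.069 for mRNA against 0.13). Of the 3068 genes 1726 passed in mRNA (56.3%, against 37.7% of all genes tested in mRNA), 735 higher (24%) and 991 lower (32.3%), against 18.9% each way over all. In bulk libraries fewer cells of a type and less RNA per cell cannot be told apart. Footprints passed in 1133 (36.9%, against 21.2% of all genes tested in footprints), 457 higher (14.9%) and 676 lower (22%), against 10.2% higher and 11% lower over all genes tested in footprints. In 718 genes mRNA and footprints both passed in the same direction and footprints per mRNA did not, a pattern called carried through here. It does not show that the ratio was unchanged, since ratio changes among these genes reached 0.52 in size. In 844 genes mRNA alone passed, in 228 footprints alone, and in 1012 none of the 3 measures.

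The 266 changes in footprints per mRNA fell into 4 patterns. In 14 genes the mRNA changed, footprints per mRNA changed the other way, and the footprint change kept the sign of the mRNA change but was smaller (buffered). In 115 genes footprints per mRNA went against the mRNA change far enough for the footprint change to have the other sign (opposed), though the footprint change itself passed in 51 of them and was under 0.1 in size in 26. Both changed in the same direction in 35 genes (reinforced), 7 up and 28 down. In 102 genes footprints per mRNA changed, 34 up and 68 down, while mRNA did not pass (footprints per mRNA alone). Together 129 genes moved against their mRNA and 35 with it, which is 7.47% and 2.03% of the genes whose mRNA changed. Footprints did not pass in 76 of the 129. In these the split into buffered and opposed rests on the sign of a footprint change that was not called. The ratio is computed with the same mRNA libraries as the mRNA change, so the 2 values are not independent. Error in those libraries moves the 2 in opposite directions, which by itself favours genes against their mRNA over genes with it. How much of the difference between 129 and 35 this makes up was not tested.

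**Figure D1:**
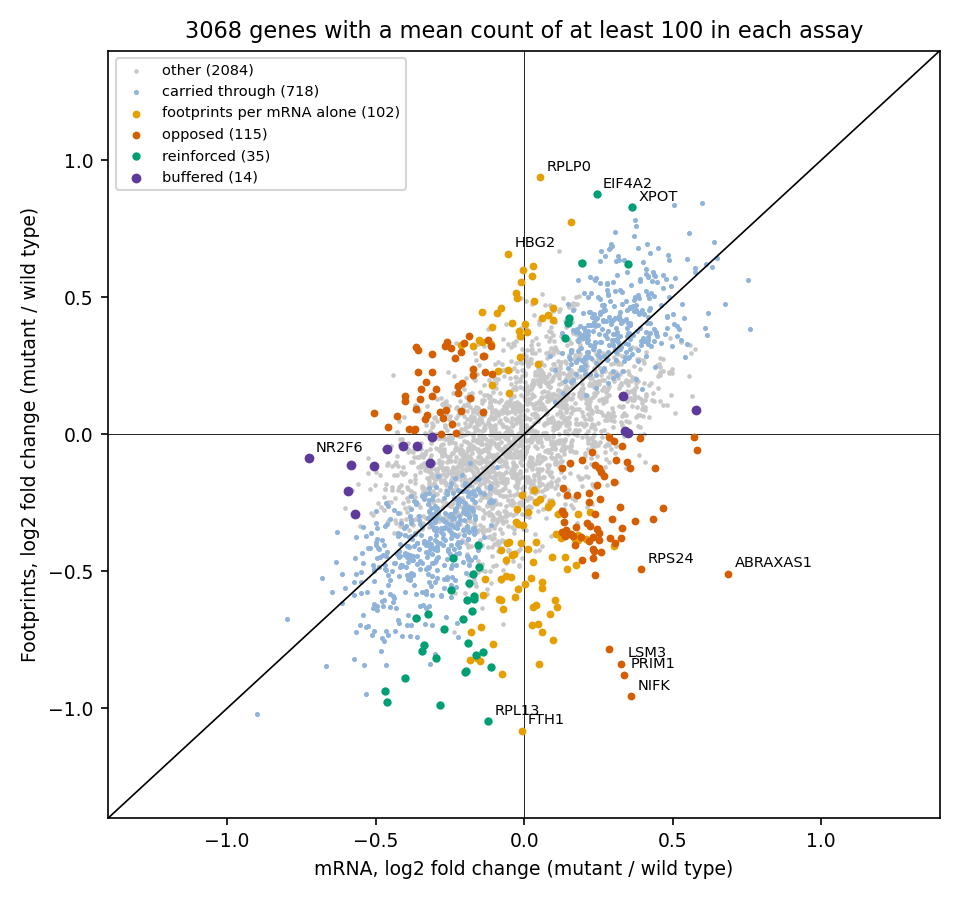
Change in footprints (vertical axis) against change in mRNA (horizontal axis), both log2 of mutant over wild type, for 3068 genes coloured by pattern, with the number of genes in each in the key. The diagonal marks equal change. Most genes lie along it, the 115 opposed genes lie in the upper left and lower right, and NIFK, PRIM1 and LSM3 stand lowest on the right.

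Footprints followed the direction of most mRNA changes but not their whole size. Of the 1726 genes whose mRNA changed, 1458 (84.5%) had a footprint change of the same sign, and 1073 (62.2%) had a smaller footprint than mRNA change. The median mRNA change was 0.29 in size and the median footprint change in its direction 0.22, a carried share of 78.3%. The share was 73.5% and 82.6% when computed from libraries of replicate number 1 and 2 alone (SD 6.43, n = 2). It was 76.8% for mRNAs that rose and 80.4% for mRNAs that fell. The genes were chosen on the same mRNA libraries that give the size of their mRNA change. With genes ranked on one pair of mRNA libraries and the size read from the other, the share was 90.4% or 77.1%. Among genes with at least 300 counts it was 89.5%.

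The largest mRNA changes were also carried. In the 12 genes whose mRNA rose 1.5-fold or more, the median footprint change was 0.52 against a median mRNA change of 0.64, and 11 of 12 footprint changes were upward. In the 13 genes whose mRNA fell as far, footprints had a median of -0.53 against -0.64, and all 13 were downward. Across the 3068 genes footprint and mRNA changes had a Pearson r of 0.63 and a slope of 0.75, from libraries that share no reads. The largest changes were picked on the measured mRNA change, and the slope was fitted on it. Error in that change inflates the former and lowers the latter, by amounts that were not tested. Genes are not independent replicates, and these values are a description only.

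**Figure D2:**
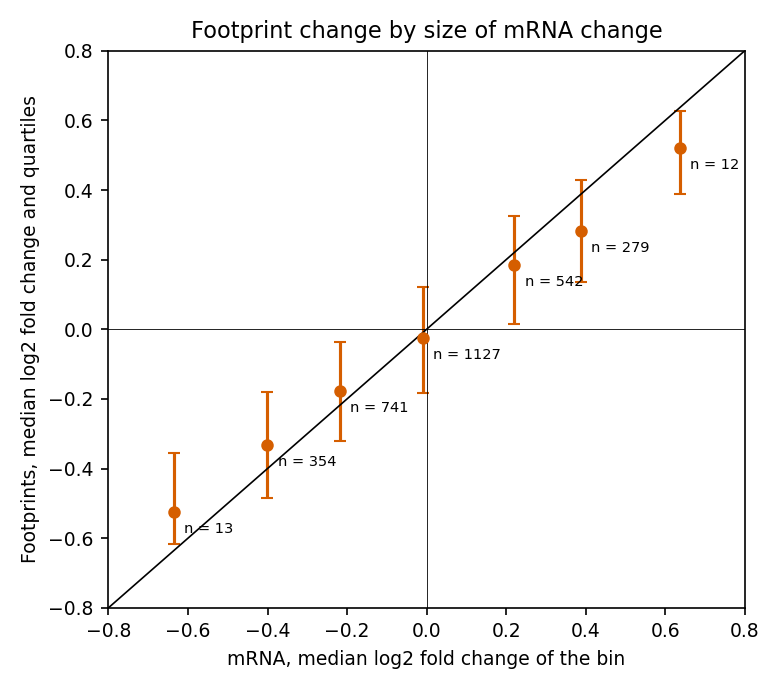
Median footprint change with quartiles (vertical axis, log2) for genes binned by mRNA change (horizontal axis, median of the bin, log2), with the number of genes beside each point and the line of equal change. Every bin of changed mRNA lies nearer to 0 than the line, from -0.53 against -0.64 in the lowest bin to 0.52 against 0.64 in the highest. Genes were binned on the same measured mRNA change, which inflates it in the outer bins. Part of this shortfall may come from the binning, and how much was not tested.

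DNMT3A itself (ENSG00000119772, chromosome 2, 25227874 to 25342590 on GRCh38) had mRNA at 291 and 294 CPM in the wild-type and 240.5 and 244 CPM in the mutant libraries. Its footprints were 137 and 153 CPM in the wild-type and 143 and 148 CPM in the mutant libraries. All 4 pairings of mutant libraries gave a higher footprint/mRNA ratio than the wild-type ones, 0.470 and 0.521 in wild-type and 0.596 and 0.608 in mutant cells, but ratios failed to overlap in 33.2% of all genes tested. The mRNA fell by 0.27 on the log2 scale, the footprint difference was -0.00, and the difference in footprints per mRNA, 0.27 (SE 0.13, adjusted p = 0.242), did not pass. A count per gene holds reads of the introduced and of the cell's own copy alike.

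The 4 largest losses of footprints per mRNA were those of NIFK, PRIM1, ABRAXAS1 and LSM3, whose mRNA had risen. NIFK, a nucleolar RNA-binding protein that binds the proliferation marker Ki-67 (chromosome 2, 121726945 to 121736875 on GRCh38), had mRNA at 56.4 and 56.8 CPM in the wild-type and 75.4 and 69.7 CPM in the mutant libraries. Its footprints moved the other way, 161 and 182 CPM in the wild-type and 87.2 and 91.2 CPM in the mutant libraries. In both assays the 2 genotypes were apart in every library. Footprints per NIFK mRNA fell from ratios of 2.86 and 3.20 to 1.16 and 1.31, a change of -1.32 (SE 0.16, adjusted p = 1.24e-09).

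PRIM1, the catalytic subunit of the primase that starts each DNA strand, had mRNA at 65.5 and 67.1 CPM in the wild-type and 91.8 and 75.1 CPM in the mutant libraries. Its footprints were 158 and 153 CPM in the wild-type and 81.0 and 89.6 CPM in the mutant libraries. Again mRNA was higher and footprints lower in both mutant libraries, and footprints per mRNA changed by -1.21 (SE 0.16, adjusted p = 3.29e-08). LSM3, a subunit of the LSm rings that bind U6 snRNA and decaying mRNA, showed the same order, with mRNA at 63.8 and 67.1 CPM in the wild-type and 81.7 and 83.0 CPM in the mutant libraries. Its footprints were 85.7 and 105 CPM in the wild-type and 50.9 and 58.6 CPM in the mutant libraries, and footprints per mRNA changed by -1.16 (SE 0.18, adjusted p = 4.09e-06). Of the remaining Sm, LSm and snRNP genes LSM8, SNRPF and SF3B5 fell (-0.61, -0.43 and -0.57), so that 4 of 31 (12.9%) fell and none rose, beside 5.44% falling and 3.23% rising over the 3068 genes.

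ABRAXAS1, a scaffold of the BRCA1-A complex in DNA repair, had one of the largest mRNA rises among the 3068 genes, from 47.8 and 51.3 CPM to 82.4 and 77.6 CPM. Its footprints were 86.3 and 91.9 CPM in the wild-type and 64.4 and 60.3 CPM in the mutant libraries. The mRNA rise of 0.69 (adjusted p = 4.47e-11) thus stood beside a footprint fall of -0.51 (adjusted p = 0.0105), and footprints per mRNA changed by -1.20 (SE 0.18, adjusted p = 9.93e-07). TMX1, a thioredoxin-like membrane protein of the endoplasmic reticulum, had mRNA at 64.0 and 58.4 CPM in the wild-type and 78.1 and 69.7 CPM in the mutant libraries. Its footprints were 265 and 252 CPM in the wild-type and 178 and 108 CPM in the mutant libraries, with the second mutant library well below the first and both below wild type, and footprints per mRNA changed by -1.07 (SE 0.15, adjusted p = 1.11e-07).

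FTH1 and EXOSC1 lost footprints with no call in mRNA. FTH1 encodes the ferritin heavy chain, which stores iron and whose translation is classically held back when iron is scarce. Its mRNA was 1706 and 1769 CPM in the wild-type and 1651 and 1808 CPM in the mutant libraries. Footprints fell from 121 and 128 CPM to 54.0 and 66.8 CPM, giving -1.07 (SE 0.16, adjusted p = 1.62e-06) in footprints per mRNA. FTL, the ferritin light chain, went the other way (0.33, SE 0.08, adjusted p = 0.00919). Both have many near-identical pseudogene copies, and how reads were assigned among them is not stated, so their values are uncertain. EXOSC1, a subunit of the RNA exosome, had footprints at 120.3 and 122 CPM in the wild-type and 64.4 and 73.3 CPM in the mutant libraries and a change of -0.89 (SE 0.19, adjusted p = 0.0012), and its call was lost without the first mutant footprint library.

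**Figure D3:**
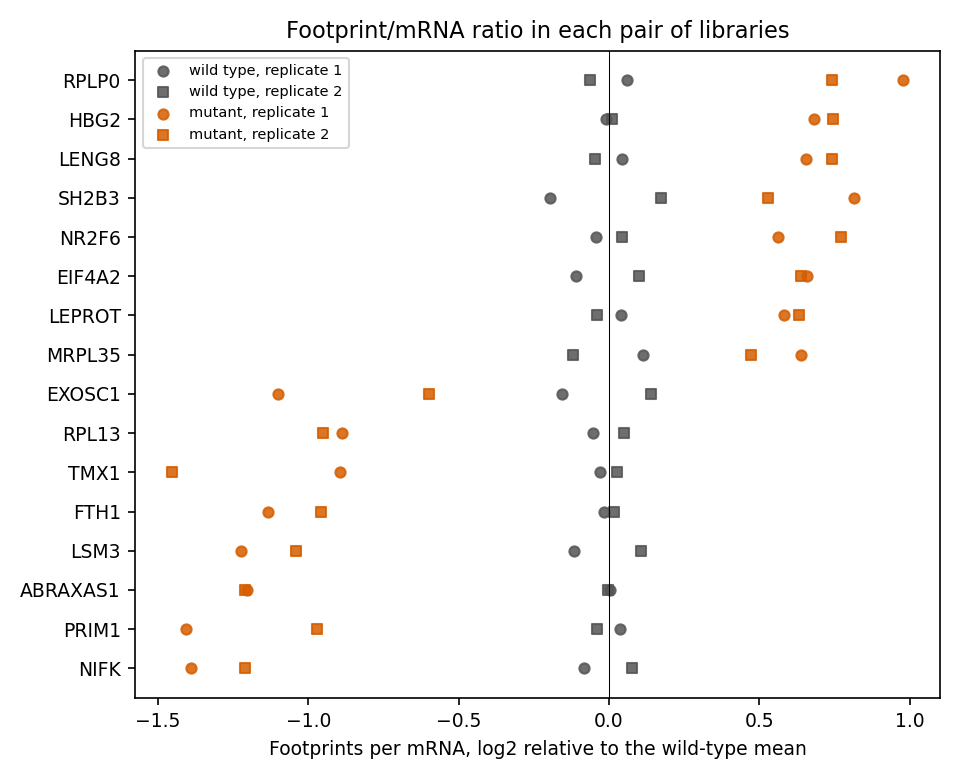
Footprint/mRNA ratio of the 16 genes with the largest called changes, on a log2 scale relative to the wild-type mean (horizontal axis). Circles and squares are replicate numbers 1 and 2, grey is wild type and orange mutant. Genes run from RPLP0 at the top to NIFK at the bottom. In each gene both mutant points lie on one side of both wild-type points, which the choice of genes required.

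Gains of footprints per mRNA were smaller than losses. The largest belonged to RPLP0, the base of the ribosomal stalk, which is described with the other ribosomal proteins. HBG2, a fetal gamma globin, had mRNA at 522 and 503 CPM in the wild-type and 505 and 479.8 CPM in the mutant libraries. Its footprints were 206 and 201 CPM in the wild-type and 322 and 319 CPM in the mutant libraries, both mutant libraries well above both wild-type ones, and footprints per mRNA rose by 0.71 (SE 0.10, adjusted p = 7.04e-08). HBG2 is nearly identical to HBG1, so reads cannot be assigned between them with certainty. Of 4 globin genes it was the only one called.

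Several gains came in genes whose mRNA had fallen. SH2B3, an adaptor that dampens cytokine receptor signalling, had mRNA at 296 and 286 CPM in the wild-type and 212 and 243 CPM in the mutant libraries. Its footprints were 66.2 and 82.7 CPM in the wild-type and 95.5 and 89.6 CPM in the mutant libraries, and footprints per mRNA rose by 0.67 (SE 0.17, adjusted p = 0.0075), a call lost without the first mutant or the first wild-type footprint library. In LENG8 the mRNA was 154 and 156 CPM in the wild-type and 113 and 129.8 CPM in the mutant libraries, and footprints per mRNA rose by 0.68 (SE 0.16, adjusted p = 0.00317), a call lost without the second mutant footprint library or with thinned footprints (footprint change 0.32, adjusted p = 0.0821). MRPL35, a protein of the mitochondrial ribosome, gained footprints with no call in mRNA, 116 and 122 CPM in the wild-type and 190.1 and 166 CPM in the mutant libraries, with 0.60 (SE 0.15, adjusted p = 0.00786) in footprints per mRNA. LEPROT, which shares its promoter region with the leptin receptor gene, rose by 0.62 (SE 0.18, adjusted p = 0.0346), but this call was lost under 9 alternatives beside the assumed spread of 10%, among them the fit with footprint libraries summed. MRPL35 lost its call under DESeq2, without the first mutant footprint library and without the second wild-type mRNA library.

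Buffering in the narrow sense, with the footprint change keeping the sign of the mRNA change, was called in 14 genes of varied function. In 10 the mRNA fell and footprints per mRNA rose. NR2F6, an orphan nuclear receptor, had mRNA at 136 and 138 CPM in the wild-type and 78.4 and 88.3 CPM in the mutant libraries, the steepest fall of the 14. Its footprints overlapped between genotypes, 104 and 112 CPM in the wild-type and 91.4 and 119 CPM in the mutant libraries, and the mRNA change of -0.72 (adjusted p = 3.95e-19) stood beside 0.64 (SE 0.16, adjusted p = 0.00786) in footprints per mRNA, a call lost under DESeq2, with thinned footprints and without the second mutant footprint library. PIEZO1, a mechanically gated cation channel, had mRNA at 1397 and 1414 CPM in the wild-type and 1067 and 1125 CPM in the mutant libraries. Its footprints were 797 and 827 CPM in the wild-type and 782 and 799.9 CPM in the mutant libraries, overlapping between genotypes, and footprints per mRNA rose by 0.32 (SE 0.07, adjusted p = 9.45e-04).

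SLC1A5, a glutamine and neutral amino acid transporter, had mRNA at 979.6 and 1022 CPM in the wild-type and 782 and 829 CPM in the mutant libraries and footprints at 1891 and 1892 CPM in the wild-type and 1736 and 1792 CPM in the mutant libraries. Its rise in footprints per mRNA of 0.21 (SE 0.06, adjusted p = 0.0197) was lost under 7 alternatives beside the assumed spread of 10%, and that of BCR, a signalling protein known as the fusion partner of ABL1 (0.39, SE 0.11, adjusted p = 0.0211), under 6. The others in this direction were MBOAT7, MAZ, SLC5A6, INTS1, IRAK1 and RAC3, between 0.28 and 0.47, named here after their values were seen. 

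In the other 4 buffered genes mRNA rose and footprints per mRNA fell. EIF3E, a subunit of the eIF3 initiation complex, had mRNA at 773 and 759.8 CPM in the wild-type and 991 and 945 CPM in the mutant libraries. Its footprints overlapped between genotypes, 1077 and 1043 CPM in the wild-type and 1082 and 1051 CPM in the mutant libraries, and footprints per mRNA changed by -0.32 (SE 0.06, adjusted p = 2.57e-04). HSPA5, the main chaperone of the endoplasmic reticulum known as BiP, had mRNA at 807 and 801 CPM in the wild-type and 1014 and 1012 CPM in the mutant libraries and footprints at 1544 and 1477 CPM in the wild-type and 1689 and 1623 CPM in the mutant libraries. Footprints rose less than mRNA (0.14 against 0.33), with -0.20 (SE 0.06, adjusted p = 0.0361) in footprints per mRNA, a call lost under 8 alternatives beside the assumed spread of 10%, among them the fit with footprint libraries summed. COX6C of cytochrome c oxidase (-0.35, SE 0.10, adjusted p = 0.0262) and ACADM, the medium-chain acyl-CoA dehydrogenase (-0.49, SE 0.15, adjusted p = 0.037), lost their calls under 6 and 7 alternatives beside the assumed spread of 10%. The number of buffered genes was 10 with footprint libraries summed and 2 to 31 when 1 library was left out.

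Among the lists, ribosomal proteins were called in footprints per mRNA most often, and in both directions. Of 36 large subunit proteins 10 fell, 6 rose and 20 did not pass, and of 25 small subunit proteins 9 fell, 2 rose and 14 did not pass, beside 5.44% falling and 3.23% rising over the 3068 genes. The medians were -0.05 and -0.09, close to the median of -0.01 over all 3068, so the class spread out more than it shifted. These mRNAs have high counts: in the highest of 5 equal bins of genes by footprint count, 13.4% fell and 7.00% rose. Ribosomal proteins have many processed pseudogenes, and their counts are uncertain where reads match several places.

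Their annotated start sites are shown because the falling and rising genes can be compared there. Each line gives 15 bases before and 15 from the RefSeq start on GRCh38.p14, 5′ to 3′, with the unbroken run of pyrimidines from the start in capitals.
RPL13 (chr16:89560667-89560696, plus strand): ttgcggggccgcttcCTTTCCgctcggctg
RPS24 (chr10:78033848-78033877, plus strand): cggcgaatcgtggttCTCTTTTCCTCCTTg
RPS19 (chr19:41860240-41860269, plus strand): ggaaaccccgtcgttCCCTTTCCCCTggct
RPS13 (chr11:17077653-17077682, minus strand): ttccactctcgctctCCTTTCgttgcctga
RPL34 (chr4:108620561-108620590, plus strand): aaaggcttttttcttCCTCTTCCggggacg
RPLP0 (chr12:120201097-120201126, minus strand): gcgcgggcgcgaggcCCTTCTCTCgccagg
RPL35 (chr9:124861943-124861972, minus strand): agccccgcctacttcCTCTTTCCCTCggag
RPL7A (chr9:133348203-133348232, plus strand): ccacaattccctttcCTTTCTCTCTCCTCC
The first 5 fell in footprints per mRNA and the last 3 rose. All 8 were picked, by smallest p, from ribosomal proteins that have a TOP start, defined as C and at least 4 further pyrimidines from the start. It was read on the gene's strand at each annotated start, and 5.14% of 27305 genes with a start in the table have one. A match describes these letters only.

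TOP starts did not separate falling from rising ribosomal proteins cleanly. Of 39 with a TOP start 14 fell and 3 rose (median -0.07), and of 11 without one 1 fell and 3 rose (median 0.13). The remaining ribosomal proteins had no start available. Among the 228 other genes with a TOP start 16 (7.02%) fell and 9 (3.95%) rose, near the shares of genes without one (4.71% and 3.15% of 2314). A start was available for 2581 of the 3068 genes (84.1%). The medians of footprints per mRNA were -0.0066 for the other genes with a TOP start and -0.0048 for genes without one.

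RPL13, a large subunit protein, had the smallest p of all genes. Its mRNA was 2557 and 2647 CPM in the wild-type and 2286 and 2506 CPM in the mutant libraries, and footprints went from 4625 and 5143 CPM to 2315 and 2431 CPM. Both mutant footprint values lay far under both wild-type values, and footprints per mRNA changed by -0.93 (SE 0.06, adjusted p = 2.81e-22). RPS19, a small subunit protein mutated in Diamond-Blackfan anaemia, had footprints at 2721 and 2789.7 CPM in the wild-type and 1519 and 1541 CPM in the mutant libraries. Its mRNA was 2475 and 2523 CPM in the wild-type and 2257 and 2367 CPM in the mutant libraries, a small fall of -0.11 (adjusted p = 0.00401) in the same direction, and footprints per mRNA changed by -0.74 (SE 0.05, adjusted p = 3.32e-18).

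RPS24, likewise a small subunit protein mutated in that anaemia, was opposed. Its mRNA was 824 and 807 CPM in the wild-type and 1099 and 1042 CPM in the mutant libraries. Footprints were 1338 and 1256 CPM in the wild-type and 934 and 903 CPM in the mutant libraries, so that mRNA was higher and footprints lower in each mutant library, with -0.89 (SE 0.06, adjusted p = 1.26e-18) in footprints per mRNA. RPL34 (-0.65, SE 0.06, adjusted p = 1.54e-12) and RPL37 (-0.48, SE 0.06, adjusted p = 2.64e-09) had the same order of smaller size. RPS13, RPL14 and RPS16 lost footprints with no call in mRNA, by -0.72, -0.74 and -0.50 in footprints per mRNA.

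RPLP0 rose against this majority. Its mRNA was 4165 and 4235 CPM in the wild-type and 4289.8 and 4438 CPM in the mutant libraries. Footprints were 335 and 312 CPM in the wild-type and 651 and 572 CPM in the mutant libraries, with both mutant libraries well above both wild-type ones, and footprints per mRNA rose by 0.89 (SE 0.08, adjusted p = 1.04e-14). Its ratio was low in both genotypes, 0.0803 and 0.0737 in wild-type and 0.152 and 0.129 in mutant cells, against a median ratio of 1.23 to 1.26 over the 3068 genes. RPL35 (0.46, SE 0.06, adjusted p = 4.14e-08), RPS29 (0.52, SE 0.07, adjusted p = 2.60e-08) and RPL7A (0.58, SE 0.14, adjusted p = 0.00375) also rose. Of the genes in this class only RPL13, RPS24 and RPLP0 passed with an assumed spread of 10%.

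Initiation factors had the lowest median of the lists in footprints per mRNA, among those with at least 10 of the 3068 genes. Of 29 initiation factors 5 fell (17.2%) and 2 rose (6.90%), beside 5.44% and 3.23% over the 3068 genes. Their medians were -0.20 in footprints per mRNA, 0.12 in mRNA and -0.02 in footprints. The falls were EIF4H, a cofactor of the eIF4A helicase (-0.67, SE 0.12, adjusted p = 1.20e-04), EIF2AK1, the heme-regulated eIF2alpha kinase (-0.51, SE 0.09, adjusted p = 7.57e-05), EIF6, which keeps ribosomal subunits apart (-0.47, SE 0.12, adjusted p = 0.0122), EIF3E and EIF3L (-0.46, SE 0.09, adjusted p = 3.42e-04). EIF4A2, a paralogue of the eIF4A helicase, rose in mRNA from 175 and 179 CPM to 203 and 218 CPM and in footprints from 79.4 and 94.0 CPM to 157 and 166 CPM. Both assays were higher in each mutant library, and footprints per mRNA rose by 0.63 (SE 0.14, adjusted p = 0.00131). It hosts small nucleolar RNAs in its introns and resembles EIF4A1, so its counts are uncertain. Among 17 elongation factors and other TOP mRNAs TPT1 alone passed (-0.51, SE 0.07, adjusted p = 1.04e-07). That is 5.88% of the list, beside 8.67% over the 3068 genes.

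Ribosome biogenesis genes were called about as often as all genes. Of 35 ribosome biogenesis genes WDR43 (-0.64) and PNO1 (-0.69) fell, FBL, the methyltransferase of box C/D particles, rose (0.22), which is 5.71% falling and 2.86% rising beside 5.44% and 3.23% over the 3068 genes, and 24 of 35 values were negative (median -0.13). Of 54 mitochondrial ribosomal proteins 4 fell and 1 rose, and of 22 cytosolic aminoacyl-tRNA synthetases CARS1 alone fell (-0.34, SE 0.09, adjusted p = 0.0192). The synthetases had a median of -0.06 in footprints per mRNA, 0.18 in mRNA and 0.04 in footprints. XPOT, which exports tRNA from the nucleus, was reinforced: mRNA was 459.8 and 449 CPM in the wild-type and 586 and 581 CPM in the mutant libraries. Its footprints were 158 and 157 CPM in the wild-type and 284 and 274 CPM in the mutant libraries, and footprints per mRNA rose by 0.47 (SE 0.10, adjusted p = 0.00154), a call lost without the first mutant footprint library and with thinned footprints.

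Nuclear-encoded subunits of complexes III and IV of the respiratory chain and of ATP synthase were called in both directions. Of 32 such genes 9 fell (28.1%) and 3 rose (9.38%), beside 5.44% and 3.23% over the 3068 genes, with 8 of the 12 opposed to their mRNA and medians of -0.14 in footprints per mRNA, 0.07 in mRNA and -0.10 in footprints. ATP5PF, a stalk subunit of ATP synthase, had mRNA at 183 and 183 CPM in the wild-type and 216 and 214 CPM in the mutant libraries. Its footprints were 759 and 701 CPM in the wild-type and 533 and 564 CPM in the mutant libraries, and footprints per mRNA changed by -0.65 (SE 0.08, adjusted p = 2.34e-08). COX7B (-0.70, SE 0.12, adjusted p = 1.23e-05), ATP5ME (-0.53) and COX5B (-0.52) fell too. The rises were ATP5MC2 (0.43) and ATP5MC1 (0.39), which encode the same c-ring subunit, and UQCRH (0.27), whose call was lost under 10 alternatives beside the assumed spread of 10%. Of 29 complex I subunits 5 fell (17.2%) and 1 rose (3.45%; median -0.15, with 23 of 29 values negative).

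Protein folding gave a small group of falls. Of 11 genes of the CCT chaperonin, which folds actin and tubulin, and its partner prefoldin 4 fell (36.4%) and none rose, beside the same 5.44% and 3.23%. CCT8 had mRNA at 707 and 696 CPM in the wild-type and 898 and 829.8 CPM in the mutant libraries and footprints at 1171 and 1150.2 CPM in the wild-type and 1158 and 1113 CPM in the mutant libraries, with -0.33 (SE 0.06, adjusted p = 2.57e-04) in footprints per mRNA. PFDN5 (-0.61), CCT5 (-0.29) and CCT3 (-0.30) fell as well. Among 17 heat shock chaperones HSP90AA1 alone passed (-0.25, SE 0.07, adjusted p = 0.0265), among 22 genes of endoplasmic reticulum folding HSPA5 alone, and among 30 proteasome subunits PSMB1 alone (-0.52, SE 0.07, adjusted p = 1.78e-07).

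**Figure D4:**
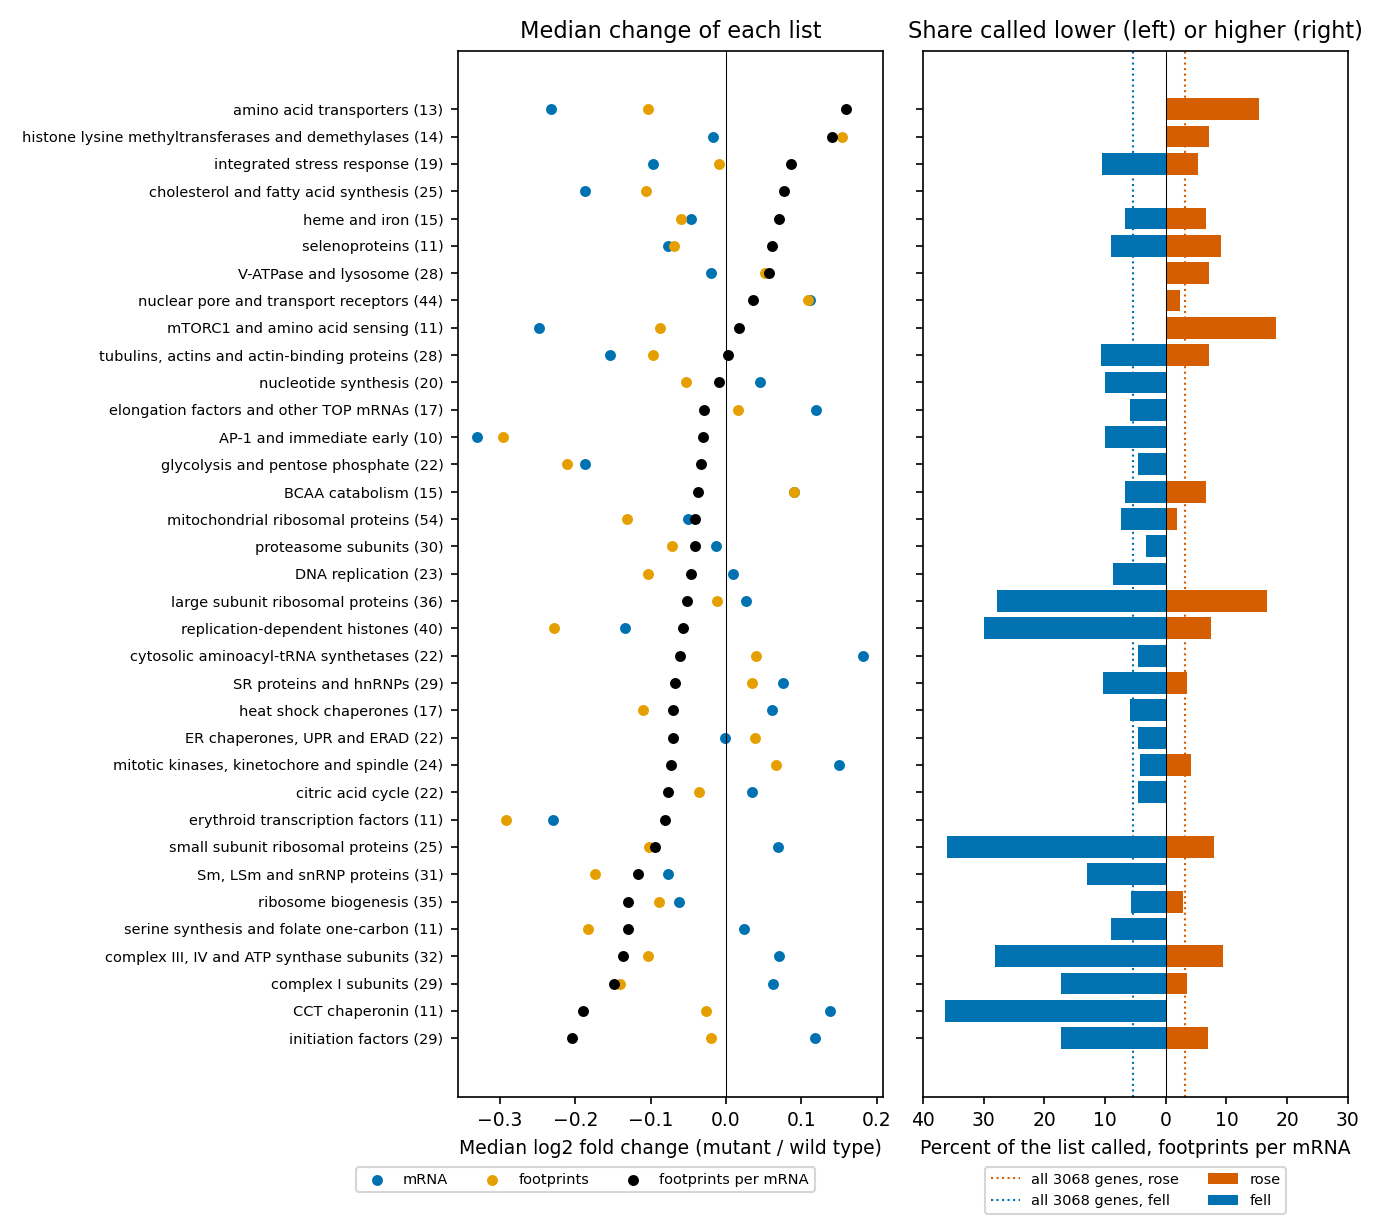
Gene lists with at least 10 of the 3068 genes (number in brackets), ordered by the median change in footprints per mRNA. Left, median log2 change of mRNA (blue), footprints (yellow) and footprints per mRNA (black). Right, percent of each list called lower (blue, to the left) and higher (orange, to the right), with dotted lines at 5.44% and 3.23% for all 3068 genes. Ribosomal proteins and histones have long bars in both directions, and initiation factors have the lowest median, -0.20.

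Replication-dependent histones had lower mRNA, footprints and footprints per mRNA in part of their members. Their transcripts end in a stem-loop in place of a poly(A) tail, and the mRNA libraries were made with oligo(dT) per the labels' protocols. The mRNA counts may thus cover only part of these transcripts, and the ratio may not be footprints over all histone mRNA. Of 40 histone genes none rose and 23 fell in mRNA, 2 rose and 25 fell in footprints, and 3 rose and 12 fell in footprints per mRNA, where 6 were reinforced. The histone shares that were lower, 57.5% in mRNA, 62.5% in footprints and 30% in their ratio, stood beside 32.3%, 22% and 5.44% of the 3068 genes. H4C3 had mRNA at 812 and 826 CPM in the wild-type and 826 and 849 CPM in the mutant libraries. Footprints were 2242 and 2298 CPM in the wild-type and 1468 and 1468 CPM in the mutant libraries, lower in both mutant libraries, and footprints per mRNA changed by -0.66 (SE 0.06, adjusted p = 1.00e-14). H4C2 was reinforced, with -0.19 (adjusted p = 1.90e-05) in mRNA and -0.41 (SE 0.06, adjusted p = 2.13e-06) in footprints per mRNA.

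H2AC6, an H2A gene, went against the class with mRNA at 665 and 695 CPM in the wild-type and 546 and 553 CPM in the mutant libraries and footprints at 694 and 711 CPM in the wild-type and 789 and 870.0 CPM in the mutant libraries. Its mRNA was lower and its footprints higher in each mutant library, and footprints per mRNA rose by 0.54 (SE 0.07, adjusted p = 2.95e-08). H2AC16 (0.52) and H2BC12 (0.23) rose too. Histone genes are near-identical copies, so shares of reads between them are uncertain. No histone gene passed with an assumed spread of 10%.

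Amino acid transporters and mTORC1 genes gave 2 calls each in footprints per mRNA, too few to read a direction for either list beside 3.23% rising and 5.44% falling over the 3068 genes. Amino acid transporters had a median of 0.16 in footprints per mRNA and -0.23 in mRNA, with 11 of 13 values positive and 2 called. SLC38A5, a transporter of glutamine and related amino acids, had mRNA at 264 and 265 CPM in the wild-type and 194 and 211 CPM in the mutant libraries and footprints at 531 and 520.1 CPM in the wild-type and 542 and 518 CPM in the mutant libraries. mRNA was lower in both mutant libraries, footprints changed by 0.02, and footprints per mRNA rose by 0.41 (SE 0.08, adjusted p = 7.18e-04). Of 11 genes of mTORC1 and amino acid sensing SESN2, a leucine sensor (0.54, SE 0.13, adjusted p = 0.00433), and EIF4EBP1, the cap-binding repressor 4E-BP1 (0.56, SE 0.14, adjusted p = 0.00958), rose and none fell, both with lower mRNA.

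Degradation of branched-chain amino acids had 1 rise, HSD17B10 (0.41, SE 0.12, adjusted p = 0.028), and 1 fall, ACADM, among 15 genes (6.67% each). The integrated stress response had SESN2 rising and MTHFD2 (-0.51, SE 0.07, adjusted p = 2.34e-08) and EIF2AK1 falling among 19 (5.26% and 10.5%). Beside 3.23% rising and 5.44% falling over the 3068 genes, these calls are too few to read a direction for either list. MTHFD2, a mitochondrial folate enzyme, had mRNA at 372 and 377 CPM in the wild-type and 422 and 424 CPM in the mutant libraries and footprints at 1519.6 and 1645 CPM in the wild-type and 1243 and 1271 CPM in the mutant libraries. OAZ1, the antizyme that targets ornithine decarboxylase and is made by a programmed frameshift, rose (0.39, SE 0.08, adjusted p = 3.92e-04) while its mRNA changed by -0.33.

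Several lists of 5 to 25 genes had many mRNA calls and 0 or 1 call in footprints per mRNA. The shares over the 3068 genes were 8.67% called in footprints per mRNA and 32.3% lower in mRNA, so 0 or 1 call in such short lists is no result about them. Cholesterol and fatty acid synthesis had 12 of 25 mRNAs lower and 2 higher, and none was called in footprints per mRNA (median 0.08). Of 11 erythroid transcription factors 9 fell in mRNA and 6 in footprints, and none was called in footprints per mRNA. The DNA methylation machinery had 4 of 5 mRNAs lower and no call. Glycolysis and the pentose phosphate pathway had 13 of 22 mRNAs and 12 footprint levels lower, and TALDO1 alone fell in footprints per mRNA (-0.21, SE 0.06, adjusted p = 0.0393).

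GPX4, the selenoprotein that detoxifies lipid peroxides, was among the clearest reinforced genes. Its mRNA was 374 and 379.6 CPM in the wild-type and 327 and 348 CPM in the mutant libraries, and its footprints were 849 and 969 CPM in the wild-type and 484 and 577 CPM in the mutant libraries. Both assays were lower in each mutant library, with -0.16 (adjusted p = 0.00393) in mRNA and -0.65 (SE 0.08, adjusted p = 2.34e-08) in footprints per mRNA. SELENOI, a selenoprotein that makes a phospholipid, was reinforced upward (0.43, SE 0.12, adjusted p = 0.0202), with its call lost under 8 alternatives beside the assumed spread of 10%. Other reinforced falls, named after their values were seen, were PIH1D1 (-0.70), MAP2K2 (-0.67) and the RNA-destabilizing protein ZFP36L2 (-0.51).

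Gene neighbourhood went with the change in mRNA and in footprints, but hardly with the median of their ratio. Genes were split into 5 equal bins by the number of protein-coding genes within 500000 bases, known for 3054 of them. From the sparsest to the densest bin the median mRNA change went from 0.17 to -0.22 and the median footprint change from 0.12 to -0.18. Footprints per mRNA had medians of -0.02 and 0.03. Falls in footprints per mRNA made up 5.57% of the sparsest and 4.42% of the densest bin, and rises 1.48% and 4.26%. With the trend with density removed 1318 genes passed in mRNA, in place of 1726. The patterns were then 93 opposed, 140 alone and 491 carried through, in place of 115, 102 and 718.

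**Figure D5:**
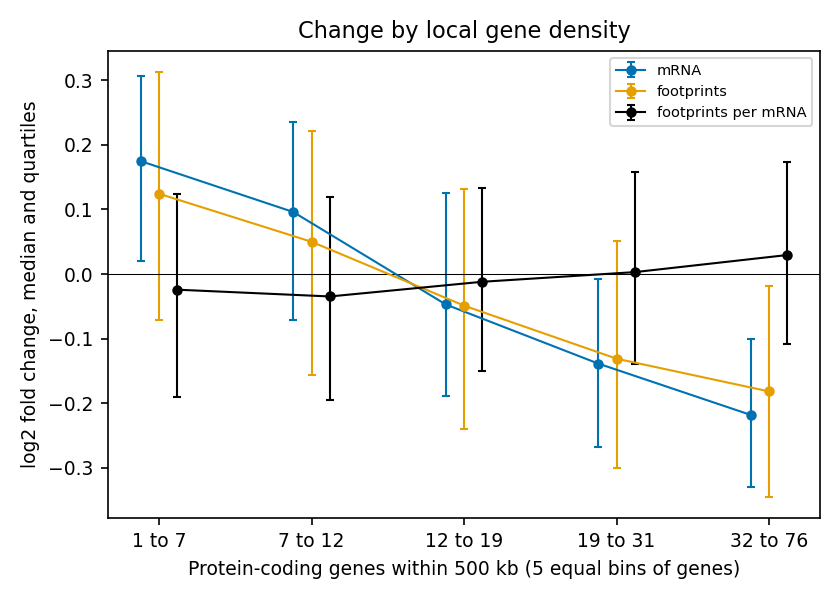
Median log2 change with quartiles (vertical axis) in 5 equal bins of genes by local gene density (horizontal axis, protein-coding genes within 500 kb). mRNA runs from 0.17 to -0.22 and footprints from 0.12 to -0.18, while footprints per mRNA stay between -0.03 and 0.03.

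Sequence at the start and expression level were compared in the same way. By GC content of the first 50 transcribed bases, falls made up 7.95% of the lowest of 5 bins and 2.90% of the highest, and rises 3.68% and 4.06%. The medians of footprints per mRNA were -0.01 and 0.03. By mean footprint count, calls rose from 1.31% higher and 2.94% lower in the lowest bin to 7.00% and 13.4% in the highest, while the medians were 0.01 and -0.03.

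At the lower limit of the count rule, CNST (0.33), ZNF687 (0.60) and LPIN1 (-0.11) lay just inside with a mean footprint or mRNA count of 100. TM2D3 (0.01), SLC25A42 (-0.13) and BRWD1 (-0.59) lay just outside at 99.75.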

How the data were processed

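Cells labelled THP-1 and transduced with wild-type or mutant DNMT3A were measured by RNA-seq (oligo(dT) priming) and ribosome profiling (RNase I fragments, size selection on a gel, rRNA depletion, small RNA kit), per the labels' protocols. The deposited values are raw counts of reads per Ensembl gene, 1 library per file. Tools named in the submitters' processing notes are featureCounts, STAR, Bowtie2, Trimmomatic and cutadapt, with builds GRCh38 and hg38. The sources used here do not give the annotation release, strand setting or handling of multiply matching reads, so near-identical, overlapping and antisense genes are uncertain.

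Groups and replicate numbers came from the labels. edgeR 4.0.16 in R 4.3.3 fitted the counts (glmQLFit with legacy set to FALSE, glmQLFTest), with TMM factors and filterByExpr within each assay. The 4 mRNA and the 4 footprint libraries were tested alone, and footprints per mRNA as the interaction of genotype and assay over 8 libraries (9166 genes passing both filters). Benjamini-Hochberg adjustment ran over all genes tested, with calls at an adjusted p under 0.05. Only genes averaging at least 100 counts both in mRNA and in footprints are described. A floor of 3 counts stood for 0.671 to 0.885 CPM in mRNA and 1.54 to 4.89 CPM in footprints, and covers counting error only, since reads lacking molecular identifiers may repeat 1 molecule.

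The members, gene lists and tests were chosen with earlier results of these data known. Named genes were DNMT3A, the 8 largest called rises and falls whose ratios did not overlap, the 4 smallest p-values per pattern and direction, and up to 4 of each list. ATP5ME, ATP5MC1, EIF6, H2AC16, H2BC12 and RPL7A were named after their values were seen. Of 20453 IDs 20407 matched a symbol, and 3054 of 3068 genes a RefSeq entry (GRCh38.p14). Protein features were not analysed here. Alternatives were RLE factors, no filter, other count limits, DESeq2 1.42.0, voom of limma 3.58.1, a spread of 10%, thinned footprints, removal of the trend with gene density, replicate blocks and each library left out. Summing the footprint libraries was chosen after seeing the data. The procedure was tested on simulated counts.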

Additional observations from a re-analysis of the deposited data

How the results depend on the processing

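Calls of footprints per mRNA among the 3068 genes numbered 266, with 257 under limma voom, 272 under RLE factors, 281 with the gene density trend removed, 232 without a low-count filter and 389 when only these genes were fitted. They numbered 112 under DESeq2, 9 with an assumed spread of 10%, 155 with thinned footprints and 150 at a limit of 300 counts. DESeq2 gave 964 mRNA and 390 footprint calls in place of 1726 and 1133, and patterns of 2 buffered, 41 opposed, 11 reinforced, 58 alone and 208 carried through, in place of 14, 115, 35, 102 and 718. The assumed spread of 10% gave 86 mRNA and 157 footprint calls, and 0 buffered, 1 opposed, 0 reinforced, 8 alone and 22 carried through, with 9 of 42 called named genes left. Thinned footprints gave 470 footprint calls, with 4 buffered, 73 opposed, 54 alone and 309 carried through. A limit of 300 counts, which leaves 896 genes, gave 8 buffered, 63 opposed, 53 alone and 296 carried through and a carried share of 89.5%. Buffered genes numbered 9 without the filter and 32, with 54 reinforced, when only the deep genes were fitted. The carried share was 90.4% with genes chosen on mRNA libraries numbered 1. DNMT3A and the 42 called named genes kept their direction under every alternative in which they were tested. The 42 were chosen for large changes or small p-values in these same libraries, so a kept direction was nearly assured. The cause of these shifts was not tested, beyond the smaller number of genes or reads where that is how the alternative was made.

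Leaving out 1 library at a time gave 113 to 301 calls of footprints per mRNA, 1105 to 1726 in mRNA and 242 to 1133 in footprints. The patterns ranged over 2 to 31 buffered, 56 to 129 opposed, 13 to 38 reinforced, 32 to 119 alone and 156 to 714 carried through, and the carried share over 69.5% to 86.9%. The first mutant footprint library had the most weight for footprints (242 calls without it), and the second wild-type mRNA library for mRNA (1105).

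Replicate numbers were not shown to pair samples: the replicate differences of 2 groups had correlations of 0.0294 to 0.209 over 3068 genes. A replicate block gave 378 calls of footprints per mRNA and 36 buffered genes, and 1818 mRNA and 1222 footprint calls. A block within each genotype gave 402 calls, 39 buffered and 55 reinforced genes.

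Depth limits the mutant footprints most: the median SE of a gene was 0.13 for footprints per mRNA, 0.11 for footprints and 0.069 for mRNA.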

Other observations

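Cytoskeletal genes changed in both directions. Of 28 tubulins, actins and actin-binding proteins 3 fell and 2 rose in footprints per mRNA, beside 167 falls and 99 rises among the 3068 genes. STMN1, which destabilizes microtubules, had mRNA at 473 and 463 CPM in the wild-type and 507 and 549 CPM in the mutant libraries and footprints at 898 and 874 CPM in the wild-type and 668 and 671 CPM in the mutant libraries. Its footprints per mRNA changed by -0.58 (SE 0.07, adjusted p = 9.61e-09) (edgeR). ACTB was reinforced downward, with -0.36 in mRNA and -0.30 in footprints per mRNA, and CFL1, the actin-severing protein cofilin, rose by 0.28 while its footprint change was 0.00.

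The 4 splicing regulators called in footprints per mRNA had no call in mRNA. The other 25 of the list were not called in footprints per mRNA, and over the whole list 10 rose and 4 fell in mRNA. Among 29 SR proteins and hnRNPs SRSF9 (-0.46), SRSF10 (-0.57) and HNRNPAB (-0.40) fell and HNRNPDL (0.57) rose, beside 5.44% falling and 3.23% rising over the 3068 genes. PCNA, the sliding clamp of DNA polymerases, had mRNA at 226 and 236 CPM in the wild-type and 238 and 233 CPM in the mutant libraries and footprints at 478 and 492 CPM in the wild-type and 365 and 298 CPM in the mutant libraries, with -0.55 (SE 0.09, adjusted p = 1.84e-05) in footprints per mRNA (edgeR). Among 28 V-ATPase and lysosomal genes CD63 (0.30) and the cholesterol exporter NPC1 (0.38) rose and none fell. In the spindle list of 24 genes SPC24 fell (-0.54) and CDCA8 rose (0.54).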
